A study of Mus musculus with 8 samples.

Results

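The genes described here are those of the insulin-like growth factor (IGF) system that encode the ligand IGF-I (Igf1), its receptor (Igf1r) and the IGF binding proteins IGFBP-2 to IGFBP-7 (Igfbp2 to Igfbp7). The 8 genes were taken by symbol from a table of 13575 genes. Of these, 6 had a row, namely Igf1r, Igfbp2, Igfbp3, Igfbp4, Igfbp6 and Igfbp7. Igf1 and Igfbp5 had no row and are given as not measured. RNA was sequenced from retinal astrocytes (AC) that had been cultured from 4-week-old mice, in order to compare 4 libraries of Cyp1b1+/+ with 4 that are labelled Cyp1b1-/-. Cyp1b1 encodes a cytochrome P450 enzyme. The strain entry was C57BL/6 for the Cyp1b1+/+ libraries. It was C57BL/7, C57BL/8, C57BL/9 and C57BL/9 for replicates 1 to 4 labelled Cyp1b1-/-. Whether these entries stand for different strains is not stated. They separate the groups, so any difference of strain cannot be told apart from the genotype. Cells of both genotypes came from pooled retinas of a mixed-gender litter and were depleted of CD31-positive endothelial cells with magnetic beads. They were grown with fetal bovine serum, heparin, endothelial growth supplement and interferon-γ. The paper lists the Y-linked genes Uty and Kdm5d among those most raised in Cyp1b1-/- cells, and names mixed gender as a limitation. The sex make-up of the groups may thus differ, and its part cannot be told apart from that of the genotype. The sources do not say that the replicates came from separate litters or cultures, so the p-values reflect only how far these samples spread, and that spread may be technical.

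IGF-I and IGF-II are small growth factors related to insulin. They act through the IGF-I receptor, a receptor tyrosine kinase that signals through IRS adaptors to the PI3K and AKT kinases. The IGF binding proteins are secreted. They hold IGFs away from the receptor or deliver them to it, and several of them also bind the cell surface or the extracellular matrix. In the retina, IGF-I and IGFBP-3 are known for their part in vessel growth.

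The RNA of the receptor stood at a like level in both groups, whereas Igfbp2 and Igfbp6 were lower in every library labelled Cyp1b1-/-. Igfbp2 was lower by 2.31 on the log2 scale, which is 4.97-fold, and Igfbp6 by 0.96, which is 1.95-fold. Igfbp3, Igfbp4 and Igfbp7 were 4.91-fold, 18.4-fold and 9.23-fold higher in replicate 2 labelled Cyp1b1-/- than the mean of replicates 1, 3 and 4. Without that library, Igfbp4 and Igfbp7 were lower in the libraries labelled Cyp1b1-/-, and Igfbp3 did not pass the test.

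The regions before the start of the 5 measured binding protein genes are shown because the genes fell into those 2 patterns. Each stretch holds the 250 bases before the RefSeq start on GRCm38.p6, read 5′ to 3′ on the strand of the gene, and for Igfbp2 it is the first of its 2 RefSeq starts. Capitals mark TATAAA and GGGCGG, searched on both strands.
Igfbp2 (chr1:72824230-72824479, plus strand): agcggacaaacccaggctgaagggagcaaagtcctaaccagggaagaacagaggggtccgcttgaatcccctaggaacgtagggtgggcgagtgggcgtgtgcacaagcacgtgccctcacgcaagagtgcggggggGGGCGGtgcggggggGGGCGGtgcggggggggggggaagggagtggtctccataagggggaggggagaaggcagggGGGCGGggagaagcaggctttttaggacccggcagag
Igfbp6 (chr15:102143936-102144185, plus strand): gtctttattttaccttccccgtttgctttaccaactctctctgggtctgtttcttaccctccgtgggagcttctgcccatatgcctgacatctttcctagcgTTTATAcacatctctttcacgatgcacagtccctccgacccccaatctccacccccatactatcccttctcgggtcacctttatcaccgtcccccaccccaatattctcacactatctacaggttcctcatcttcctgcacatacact
Igfbp3 (chr11:7213924-7214173, minus strand): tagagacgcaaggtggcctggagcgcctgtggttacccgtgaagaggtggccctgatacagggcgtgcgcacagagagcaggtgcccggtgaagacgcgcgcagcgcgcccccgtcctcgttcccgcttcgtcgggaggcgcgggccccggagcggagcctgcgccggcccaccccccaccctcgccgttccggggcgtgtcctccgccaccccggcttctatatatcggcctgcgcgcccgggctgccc
Igfbp4 (chr11:99040994-99041243, plus strand): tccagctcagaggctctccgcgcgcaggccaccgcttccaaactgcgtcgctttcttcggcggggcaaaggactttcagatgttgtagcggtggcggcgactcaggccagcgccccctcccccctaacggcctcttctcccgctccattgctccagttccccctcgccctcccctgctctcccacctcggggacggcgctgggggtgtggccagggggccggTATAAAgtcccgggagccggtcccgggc
Igfbp7 (chr5:77408046-77408295, minus strand): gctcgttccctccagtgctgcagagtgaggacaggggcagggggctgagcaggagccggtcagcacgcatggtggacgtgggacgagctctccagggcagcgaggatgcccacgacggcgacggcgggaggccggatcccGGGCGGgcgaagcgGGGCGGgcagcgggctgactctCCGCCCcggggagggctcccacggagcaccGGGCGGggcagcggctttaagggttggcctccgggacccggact
GGGCGG, the core of a GC box, was found 3 times before Igfbp2 and 4 times before Igfbp7. It did not occur in the windows of Igfbp3, Igfbp4 and Igfbp6, and 32.7% of the 32851 windows of the RefSeq table held it. TATAAA, a form of the TATA box, lay 28 bases before the start of Igfbp4 and, on the opposite strand, 148 bases before that of Igfbp6, with 12.4% of all windows holding it. Other forms of the TATA box were not searched, and the Igfbp3 window holds tatatat near its end. TGANTCA, the AP-1 motif, was also searched and had no match in these 5 windows, against 6.75% of all windows. The window of the second RefSeq start of Igfbp2, not printed, differed from the first in that it held 1 TGANTCA, 39 bases before that start, and no GGGCGG. No match of one motif overlapped a match of another. The GC content was 67.2%, 73.2%, 69.2% and 74.0% before Igfbp2, Igfbp3, Igfbp4 and Igfbp7 and 49.6% before Igfbp6 (median of all windows 52.4%). The Igfbp6 window ends at 102144185, before the GENCODE start of the gene at 102144362, and the bases between were not searched. The matches are descriptions of sequence only.

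The values analysed are counts per gene that the authors scaled to a common library size and rounded, called normalized values here. Their total was 19261729 to 20134745 per library, which reflects the scaling, so it does not show the raw depth of each library. Cyp1b1, the targeted gene, ran against the label, with values of 749 to 882 for Cyp1b1+/+ and of 1276 to 1368 for the libraries labelled Cyp1b1-/-, which are therefore named by their labels throughout. Of 8 astrocyte markers, 4 had a row (Pax2, Slc1a3, Gja1 and Vim), and Gfap, S100b, Aldh1l1 and Aqp4 had none. Replicate 2 labelled Cyp1b1-/- stood apart from the rest. There, 509 of 13564 genes exceeded the average of replicates 1, 3 and 4 by over 2-fold, while in each of the other 7 libraries 29 to 51 genes exceeded the average of their group in this way. Of 6 fibroblast markers, 3 had a row, all of them collagen genes (Col1a1, Col1a2 and Col3a1), and Dcn, Lum and Pdgfra had none. The summed value of these 3 was 172972 in that library, 1906 to 2146 in the other 3 with its label and 2652 to 3542 in Cyp1b1+/+. Results are given with and without it where it changes them. In RNA of whole cultures, fewer cells of a type and less RNA per cell cannot be told apart.

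**Figure D1:**
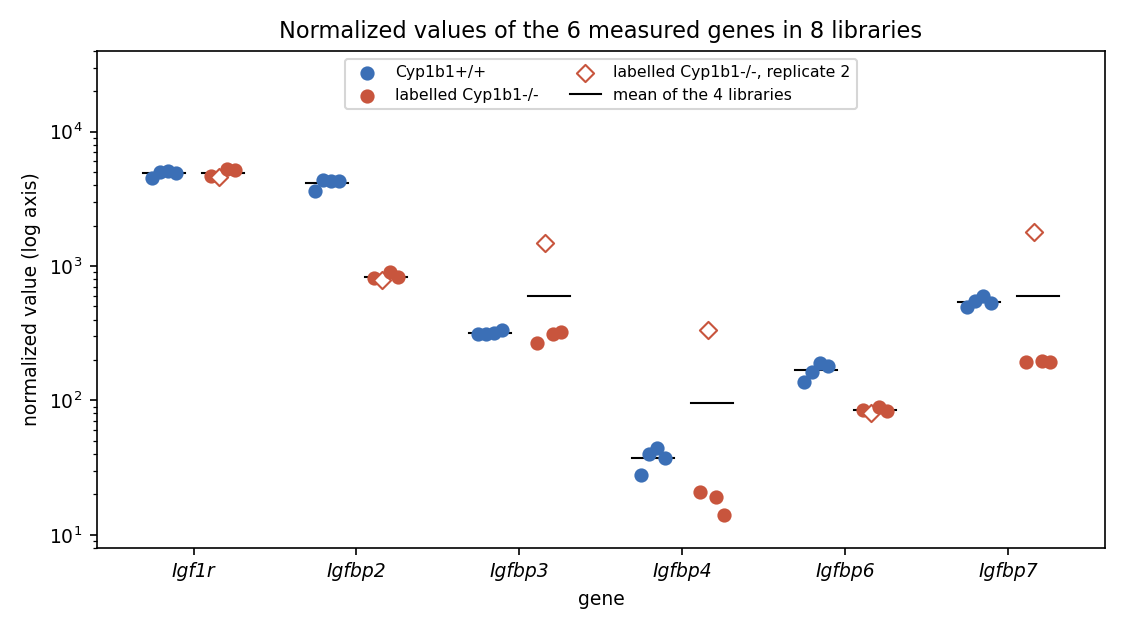
Normalized value (log axis) of each of the 6 measured genes in each of the 8 libraries, with 1 point per library, a bar at the mean of the 4 libraries of a label, and replicate 2 labelled Cyp1b1-/- as an open diamond. Igf1r values of both labels overlap, Igfbp2 and Igfbp6 are lower in all 4 libraries labelled Cyp1b1-/-, and the diamonds of Igfbp3 (1476), Igfbp4 (332) and Igfbp7 (1794) lie above every other library.

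Igf1r encodes the receptor tyrosine kinase that binds IGF-I and IGF-II (ENSMUSG00000005533, chromosome 7 of GRCm38, 67952827 to 68233668). The Cyp1b1+/+ libraries, in the order of replicates 1 to 4, held normalized values of 4508, 5023, 5106 and 4954. The value was 4700, 4590, 5307 and 5173 in replicates 1 to 4 labelled Cyp1b1-/-. The groups overlapped, with the lowest value of all 8 in Cyp1b1+/+ replicate 1. The group means of 4898 ± 267 and 4942 ± 351 (SD, n = 4) gave a log2 fold change of 0.01 (95% interval -0.11 to 0.14, adjusted p = 0.87 from limma). Without replicate 2 labelled Cyp1b1-/- the interval was -0.06 to 0.16, so a change beyond these bounds was not seen in either fit.

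Of the 6 measured genes, 2 passed an adjusted p under 0.05 from limma, both of them lower, and 0 were higher, also at an unadjusted p under 0.05. Among all 13575 genes, 53.7% passed that test, 26.8% as higher and 26.9% as lower, so 2 of 6 is not more than the table as a whole gives. The median log2 fold change of the 6 genes was -0.33, beside 0.00 for all genes. Without replicate 2 labelled Cyp1b1-/-, 4 of the 6 were lower and 0 higher, the same at an unadjusted p, with a median of -0.98, and 28.2% of all genes were lower (56.2% passed in either direction). The values of the groups did not overlap in 2 of the 6 genes, against 49.3% of all genes (24.8% higher and 24.4% lower). Without that library they did not overlap in 4 of the 6, against 55.8% (27.8% higher and 28% lower).

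Igfbp2 encodes IGFBP-2, a secreted binding protein made by astrocytes (ENSMUSG00000039323, chromosome 1, 72824503 to 72852474). Cyp1b1+/+ replicates 1 to 4 had normalized values of 3618, 4371, 4294 and 4302, whereas those labelled Cyp1b1-/- had 815, 784, 897 and 831. All 4 libraries labelled Cyp1b1-/- lay below the lowest Cyp1b1+/+ library, and replicate 2 was no exception. The mean fell from 4146 ± 354 to 832 ± 47.7 (SD, 4 libraries each), and limma gave a log2 fold change of -2.31 ± 0.06 SE (adjusted p = 2.44e-09). A two-sided exact permutation test on this gene alone gave p = 0.0286, the smallest that 4 libraries against 4 allow. The gene lies 5457 bp from Igfbp5 on chromosome 1, with the 3′ ends facing each other.

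Igfbp6 encodes IGFBP-6, which binds IGF-II in preference to IGF-I (ENSMUSG00000023046, chromosome 15, 102144362 to 102149511). Normalized values of 136, 163, 189 and 180 were found in Cyp1b1+/+ replicates 1 to 4, as against 85, 81, 89 and 83 for the replicates labelled Cyp1b1-/-. The ranges did not overlap, and the spread was wider in Cyp1b1+/+. The mean fell from 167 ± 23.3 to 84.5 ± 3.42 (SD, 4 libraries each), and limma gave a log2 fold change of -0.96 ± 0.11 SE (adjusted p = 3.89e-05, and an exact permutation p = 0.0286, two-sided).

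Igfbp7 encodes a secreted protein of the matrix that binds IGFs with low affinity (ENSMUSG00000036256, chromosome 5, 77349240 to 77408041). For Cyp1b1+/+ replicates 1 to 4 the values were 496, 551, 596 and 531. They were 193, 1794, 198 and 192 in replicates 1 to 4 labelled Cyp1b1-/-. Replicates 1, 3 and 4 lay within 6 units of each other and below every Cyp1b1+/+ library, and replicate 2 lay above all of them. With all 8 libraries the log2 fold change was -0.68 (95% interval -2.06 to 0.71, adjusted p = 0.383 from limma). Without replicate 2 it was -1.48 (95% interval -1.62 to -1.33, adjusted p = 1.04e-09 from limma), a fall from 544 ± 41.7 (n = 4) to 194 ± 3.21 (SD, n = 3).

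Igfbp4 encodes IGFBP-4, which the protease PAPP-A cleaves to free bound IGF (ENSMUSG00000017493, chromosome 11, 99041244 to 99054392). Its values were 28, 40, 44 and 37 for Cyp1b1+/+ replicates 1 to 4, compared with 21, 332, 19 and 14 for those labelled Cyp1b1-/-. Replicate 2 was again the highest of all 8 libraries, and the other 3 were the lowest. The log2 fold change was 0.03 with all libraries (95% interval -1.81 to 1.86, adjusted p = 0.98 from limma) and -1.01 without replicate 2 (95% interval -1.5 to -0.52, adjusted p = 0.00194 from limma). At such low values the constant of 1 added before taking logs affects the fold change. With all libraries it was 0.02 with a constant of 0.5 and 0.01 with 0.1. The fit without replicate 2 was run with a constant of 1 only.

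Igfbp3 encodes IGFBP-3, the main carrier of IGFs in blood (ENSMUSG00000020427, chromosome 11, 7206086 to 7213923). Cyp1b1+/+ replicates 1 to 4 had 314, 312, 315 and 336, and the replicates labelled Cyp1b1-/- had 267, 1476, 312 and 322. Apart from replicate 2 the groups overlapped. The log2 fold change was 0.48 with all libraries (95% interval -0.52 to 1.48, adjusted p = 0.388 from limma) and -0.09 without replicate 2 (95% interval -0.25 to 0.06, adjusted p = 0.298 from limma). Unlike Igfbp4 and Igfbp7, it had no lower level that passed the test in the 3 remaining libraries. Its neighbour Igfbp1, 3539 bp away, had no row in the table.

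**Figure D2:**
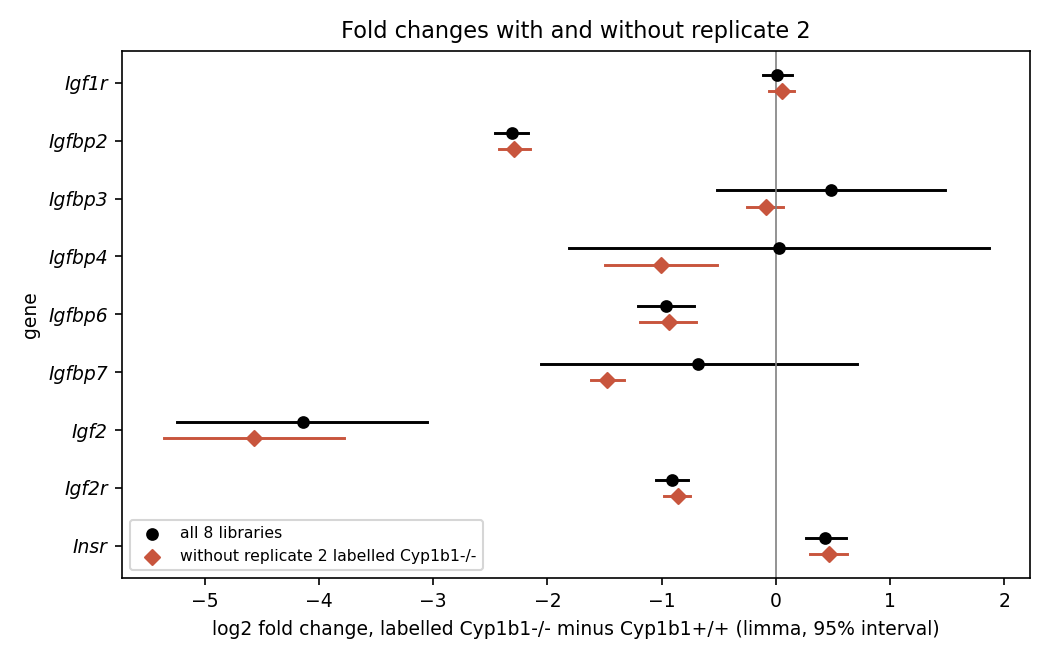
Log2 fold change from limma (labelled Cyp1b1-/- minus Cyp1b1+/+, x axis) with its 95% interval for the 6 measured genes and for Igf2, Igf2r and Insr, from all 8 libraries (black) and without replicate 2 labelled Cyp1b1-/- (red diamonds). Igfbp7 moves from -0.68 to -1.48 and Igfbp4 from 0.03 to -1.01, while Igfbp2, Igfbp6, Igf2r and Insr keep their values within 0.05.

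Thus 3 of the 6 measured genes lay more than 2-fold above the other libraries of their label in replicate 2 and 0 lay more than 2-fold below, where 3.75% of all genes lay above and 1.12% below. This is a description of 1 library, with no test. In that library the values of Igfbp2 (784) and Igfbp6 (81) were the lowest of the 4 with its label. The fibroblast markers that were high there are given above. Of the other marker lists, the summed value of pericyte and smooth muscle markers was 68533 in replicate 2 and 42085 to 45316 in the other 3 (4 of 7 with a row), and that of astrocyte markers 131536 and 100428 to 106936 (4 of 8 with a row). Most of the astrocyte sum was Vim, which encodes the filament protein vimentin (128380 in replicate 2). Endothelial cells had 1 of 6 markers with a row (Kdr, 156 in replicate 2 and 159 to 175 in the others), and Pecam1, Cdh5, Tek, Tie1 and Cldn5 had none. Of the microglial markers, 1 of 8 had a row, summing to 15 in replicate 2 and 7 to 12 in the other 3. Neurons and photoreceptors also had 1 of 6 (Tubb3, 2198 against 1084 to 1104). The 2 Müller glia markers with a row, of 5, summed to 1776 against 1755 to 1880, and the 2 of retinal pigment epithelium, of 6, to 60 against 38 to 49. The part of these cell types in the values of Igfbp3, Igfbp4 and Igfbp7 was not tested.

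Markers also differed between the labels, beside the lower Igfbp2 and Igfbp6. Pax2, a transcription factor of the astrocyte lineage, had 28, 29, 39 and 35 in Cyp1b1+/+ and 0, 0, 1 and 0 in the replicates labelled Cyp1b1-/- (adjusted p = 5.18e-06 by limma). The astrocyte markers Gja1 (736 to 851 against 1180 to 3124) and Vim (74812 to 81133 against 99216 to 128380) were higher there, and Slc1a3 did not pass. Lower were Notch3 (180 to 222 against 53 to 148) and Pdgfrb (725 to 883 against 301 to 738) of the pericyte list, Kdr (191 to 228 against 156 to 175), Csf1r (32 to 37 against 7 to 15) and Mitf (37 to 47 against 16 to 38). The pericyte and smooth muscle markers Acta2 and Tagln did not pass, with log2 fold changes of 0.25 and 0.22. Neither did Pmel (0.10), which is in the pigment epithelium list with Mitf. Tubb3 of the neuron list (944 to 996 against 1084 to 2198) passed as higher only without replicate 2 (limma, adjusted p = 0.00283). Without that library, Rdh10 of the Müller glia list passed as lower (limma, adjusted p = 0.0104). Glul of the same list passed in neither fit. Col3a1, a fibroblast marker, had 770 to 946 in Cyp1b1+/+, 6407 in replicate 2 and 46 to 73 in replicates 1, 3 and 4, where Igfbp4 and Igfbp7 were lower as well. The other fibroblast markers with a row did not share this. Without replicate 2 the log2 fold change was -3.88 for Col3a1, -0.29 for Col1a1, whose groups overlapped, and 0.06 for Col1a2, which did not pass. Whether these markers have a part in the differences of Igfbp2, Igfbp4, Igfbp6 and Igfbp7 was not tested.

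Levels can be set against each other only per length of transcript, so each normalized value was divided by the kilobases of the principal transcript. On this scale Igfbp2 was the highest of the 6 genes in every Cyp1b1+/+ library (2768 to 3344 per kilobase). Igfbp7 (413 to 497) and Igf1r (395 to 448) came next, with overlapping ranges. Igfbp6 (122 to 170) and Igfbp3 (129 to 139) also overlapped, and Igfbp4 was lowest (7.31 to 11.5). Both overlaps depended on the length used. With merged exon lengths Igfbp7 had 410 to 493 and Igf1r 268 to 304, and Igfbp6 had 122 to 170 and Igfbp3 99.7 to 107. In replicates 1, 3 and 4 labelled Cyp1b1-/- the order was Igfbp2 (624 to 686 per kilobase), Igf1r (412 to 465), Igfbp7 (160 to 165), Igfbp3 (110 to 133), Igfbp6 (74.6 to 80.0) and Igfbp4 (3.65 to 5.48), and no neighbours in it overlapped. In replicate 2 Igfbp7 was highest with 1495 per kilobase, ahead of Igfbp3 (610) and Igfbp2 (600).

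The summed level of the 5 binding protein genes was 3441 to 4094 per kilobase in Cyp1b1+/+ and 977 to 1065 in replicates 1, 3 and 4 labelled Cyp1b1-/-. Igfbp2 made up 80.3% to 81.8% of the sum in Cyp1b1+/+ and 63.1% to 64.4% in those 3 libraries. Replicate 2 had a sum of 2864, of which Igfbp7 was 52.2%, Igfbp3 21.3% and Igfbp2 20.9%. It thus lay between the other libraries of its label and Cyp1b1+/+ in amount and differed from both in make-up. With merged exon lengths the share of Igfbp2 was 75.0% to 76.9%, 57.0% to 58.3% and 16.8%. The sum was then 2598 to 3098, 767 to 833 and 2528, so that replicate 2 lay close below the lowest Cyp1b1+/+ library.

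**Figure D3:**
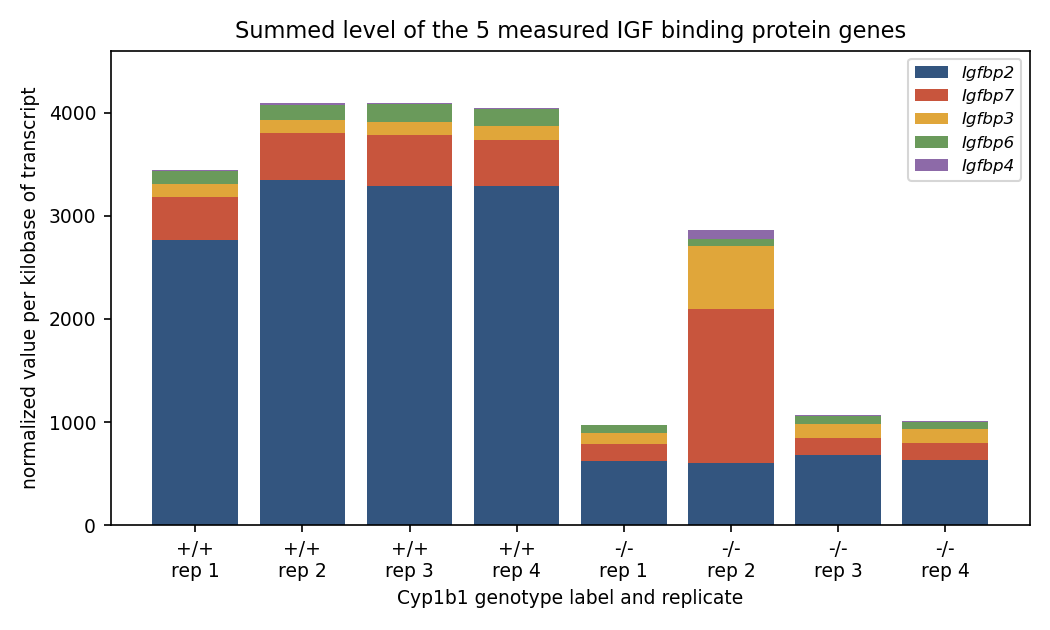
Stacked bars give the normalized value per kilobase of principal transcript of the 5 measured binding protein genes (y axis) in each library (x axis, genotype label and replicate). The bars stand at 3441 to 4094 in Cyp1b1+/+, mostly Igfbp2, at 977 to 1065 in replicates 1, 3 and 4 labelled Cyp1b1-/-, and at 2864 in replicate 2, mostly Igfbp7.

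The genes whose pattern over the 8 libraries was most like each member were found by Pearson correlation of log2 values among 11556 genes with a mean of at least 50. The libraries share their genotype label and, in replicate 2, 1 library that stands apart, so these correlations describe both and carry no test. For Igfbp2 they were Adamts14, a procollagen-processing protease (r = 0.9998, n = 8 libraries), and Cyba, a subunit of the NADPH oxidase (r = 0.9997). Igfbp6 was most like Ptprn and Sorl1, a sorting receptor (both r = 0.9971). Igfbp3 resembled Fos, an AP-1 subunit (r = 0.9963), and the collagen gene Col1a1 (r = 0.9947). Fos had 955 in replicate 2 and 28 to 35 in the other 3 libraries with its label, and Col1a1 had 122121 and 1643 to 1843. With 32 to 43 in Cyp1b1+/+, Fos reached the mean of 50 only through replicate 2. Igfbp4 was closest to Dab2, an endocytic adaptor (r = 0.9871), and Col6a2, a chain of collagen VI (r = 0.9855). For Igfbp7 they were Ltbp2, a matrix protein related to the latent TGF-β binding proteins (r = 0.9981), and Creb3l1, a transcription factor of the endoplasmic reticulum (r = 0.9974). Ltbp2 had 78 to 108 in Cyp1b1+/+, 782 in replicate 2 and 9 to 11 in the other 3 libraries labelled Cyp1b1-/-. Igf1r followed Ly75 (r = 0.9703) and Gnptg (r = 0.9683), which also overlapped between the groups.

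Of the other ligands, receptors and carriers, 3 of 8 had a row, and Ins1, Ins2, Insrr, Igfbp1 and Igfals had none. Igf2, the gene of the ligand IGF-II, had 106, 115, 110 and 103 in Cyp1b1+/+ and 6, 14, 1 and 6 in the replicates labelled Cyp1b1-/- (log2 fold change by limma -4.14 ± 0.49 SE, adjusted p = 5.49e-05). No Cyp1b1+/+ library came near the other group, although the values there are so low that the size of the fold change is uncertain. Igf2r, the receptor that takes up and clears IGF-II, had 5329, 6056, 6031 and 5850 and then 2958, 2787, 3351 and 3289 (log2 fold change by limma -0.91 ± 0.06 SE, adjusted p = 1.39e-06). Insr, the insulin receptor and closest relative of Igf1r, was higher, with 1000, 1207, 1208 and 1195 against 1407, 1463, 1682 and 1675 (log2 fold change by limma 0.43 ± 0.08 SE, adjusted p = 9.02e-04). In each of the 3 genes the groups did not overlap, as was also so in 49.3% of all 13575 genes.

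Proteases that cleave IGF binding proteins went in both directions. Of 7 proteases and inhibitors listed, 6 had a row, 3 were higher, 1 lower and 2 (Stc1 and Stc2, inhibitors of PAPP-A) did not pass. Beside the counts of this list and of those below, 26.8% of all 13575 genes were higher and 26.9% lower. Pappa, which encodes PAPP-A, had 1157, 1229, 1155 and 1108 in Cyp1b1+/+ and 203, 625, 160 and 197 in the replicates labelled Cyp1b1-/-. It was lower in all 4, with replicate 2 the highest of them (limma, log2 fold change -2.20 at an adjusted p = 3.74e-04, and -2.64 without replicate 2). Htra1, a secreted serine protease that itself has an IGFBP domain, had 492, 600, 573 and 596 and then 1676, 1788, 1901 and 1872 (limma, log2 fold change 1.68 at an adjusted p = 3.12e-08). Adam12 (limma, log2 fold change 0.66 at an adjusted p = 0.00919) and Adam9 (0.15, adjusted p = 0.0132), both metalloproteases, were higher as well. Adam12 had 865 in replicate 2 and 450 to 485 in the other 3. Stc2 passed as lower without replicate 2.

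Cell surface proteins that bind IGF binding proteins were all 5 measured, with 1 higher and 2 lower. Tmem219, known in human cells as a receptor of IGFBP-3, rose from 82.8 ± 10.0 to 160 ± 28.6 (SD, 4 libraries each), a log2 fold change of 0.94 (limma, adjusted p = 2.13e-04). Lrp1, an endocytic receptor that also binds IGFBP-3, fell from 15755 ± 1090 to 9874 ± 1964 (limma, log2 fold change -0.69 at an adjusted p = 5.10e-04), with 12781 in replicate 2. Itga5, a chain of the fibronectin receptor, was lower by less (limma, log2 fold change -0.31 at an adjusted p = 0.0132), and its groups overlapped because of replicate 2 (3276). Cd93, a receptor of IGFBP-7 known from endothelial cells, and Itgb1 did not pass.

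Other proteins with an IGFBP domain gave 2 higher and 3 lower among the 7 of 13 with a row. Kazald1 was higher, from 11.2 ± 3.10 to 32.5 ± 1.29 (SD, 4 libraries each), a log2 fold change of 1.49 (limma, adjusted p = 4.54e-04), beside Htra1. Cyr61, a matricellular protein of the CCN family, fell from 23842 ± 2051 to 17362 ± 1252 (limma, log2 fold change -0.46 at an adjusted p = 3.25e-04). Nov, another CCN member, had 98.0 ± 13.6 and 54.0 ± 6.06 (limma, log2 fold change -0.85 at an adjusted p = 3.93e-04). Ctgf was lower too.

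Inside the cell, 15 of 16 receptor adaptors and regulators had a row, of which 6 were higher, 1 was lower and 8 did not pass. Of all genes, 26.8% were higher and 26.9% lower, and the list as a whole was not tested. Grb14, an adaptor that inhibits the insulin receptor, fell from 225 ± 4.69 to 101 ± 5.85 (SD, 4 libraries each), a log2 fold change of -1.15 (limma, adjusted p = 5.88e-07). Its relative Grb10 rose from 9892 ± 269 to 13557 ± 565 (limma, log2 fold change 0.45 at an adjusted p = 4.96e-06). Gab1, a docking protein, and Irs2, a receptor substrate, were higher by 0.28 and 0.27 on the log2 scale (adjusted p = 0.00147 and 0.00313 from limma). Irs1 did not pass.

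Of 28 genes of PI3K, AKT, mTOR and FOXO signaling, 27 had a row, of which 7 were higher, 10 were lower and 10 did not pass. Inppl1, which encodes a lipid phosphatase, fell from 3690 ± 110 to 2532 ± 227 (SD, 4 libraries each), a log2 fold change of -0.55 (limma, adjusted p = 2.00e-05). The kinase genes Gsk3b and Mtor were lower by small amounts (log2 fold change -0.31 and -0.25, adjusted p = 2.78e-05 and 4.12e-05 from limma). The 3 genes of IGF2 mRNA-binding proteins, Igf2bp1, Igf2bp2 and Igf2bp3, gave 0 calls with limma, also at an unadjusted p under 0.05, with log2 fold changes of 0.10, -0.01 and 0.02. Without replicate 2 labelled Cyp1b1-/-, 1 of them, Igf2bp1, passed as higher (0.13 on the log2 scale).

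Over all these lists 65 other genes were measured, of which 19 were higher and 19 lower. This is 29.2% in each direction, beside 26.8% and 26.9% of all genes, and their median log2 fold change was -0.02. The share called is near that of the whole table and is not a result about the pathway.

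**Figure D4:**
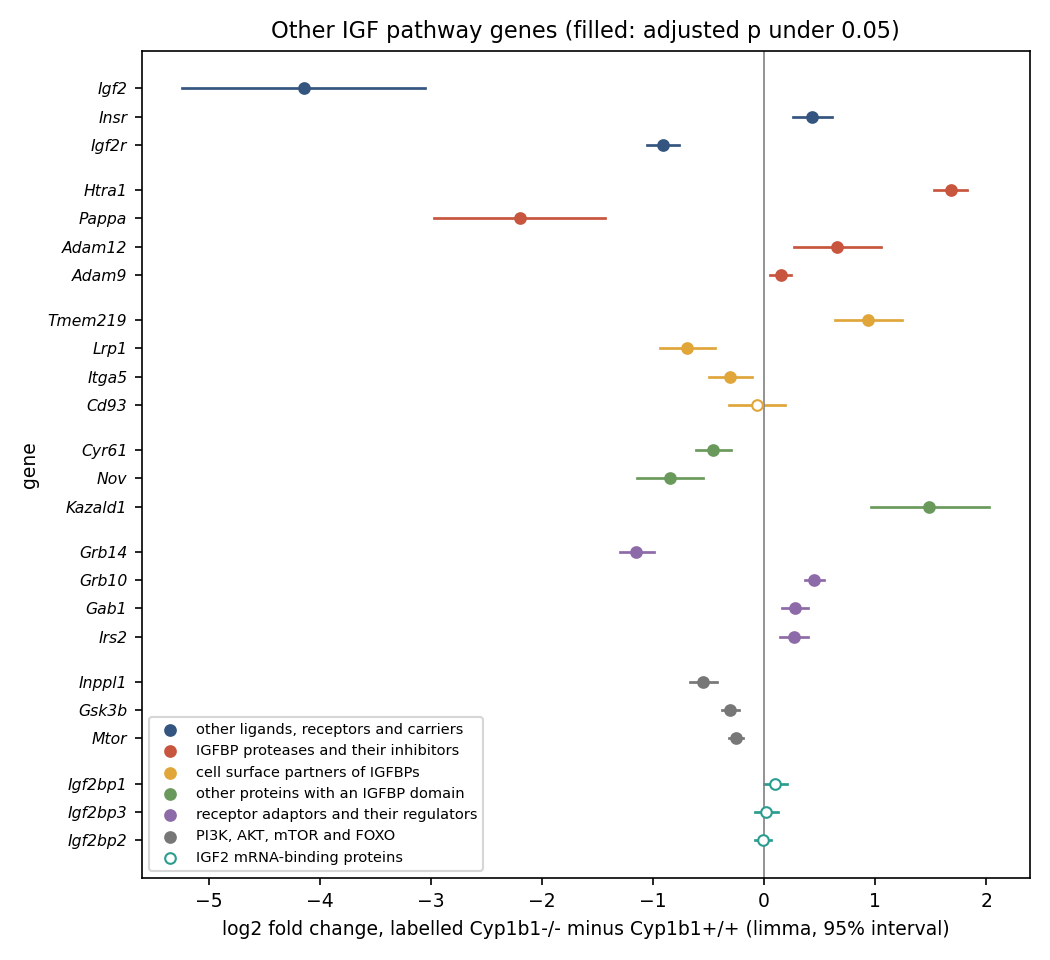
Log2 fold change from limma with its 95% interval (x axis) for the named genes of 7 other lists of the IGF system (colours), filled where the adjusted p is under 0.05. Htra1 belongs to 2 lists and is drawn once; Igf2 (-4.14), Pappa (-2.20) and Grb14 (-1.15) lie furthest to the left, and Htra1 (1.68) and Kazald1 (1.49) furthest to the right.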

How the data were processed

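Poly-A RNA of 8 libraries was sequenced with paired ends. The authors demultiplexed with bcl2fastq 2.20, used STAR 2.5.3a and GRCm38.p6 for alignment and RSEM for counting, and applied a TMM normalization in edgeR 3.28.0. The authors deposited, for each gene and library, a score, namely the TMM-scaled count without decimals. Raw counts and the depth of each single library are not given in the sources used here, so the counting error of single values is unknown. The authors' own fold changes, p-values and false discovery rates, and their selection of genes, entered no test here. Only the Y-linked genes named at the start were taken from them.

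All 13575 genes were tested with limma 3.58.1 (R 4.3.3) on log2(value + 1), letting the prior variance follow the mean, without covariates, over all 8 libraries grouped by their titles. Benjamini-Hochberg adjustment covered the whole table, and genes were called at an adjusted p under 0.05. The added 1 affects fold changes of low genes, and that of Igf2 was -4.14 with it, -4.31 with 0.5 and -4.47 with 0.1. The genes and lists were chosen with earlier results of these data known. The text names all members, all measured ligands, receptors and carriers, and in each other list up to 4 genes with the smallest p. For each member it also names the 2 most similar genes. Uty and Kdm5d are named from the paper. Any other gene (Stc1, Stc2, Itgb1, Ctgf, Irs1 and the cell type markers) was named after its values were seen. One gene that this rule selects is not reported here. Genes were matched by symbol, coordinates and lengths came from GENCODE M21 on GRCm38, and promoter windows, found for all 8 members, from RefSeq on GRCm38.p6. Alternatives were pseudocounts of 0.5 and 0.1, median-ratio scaling, equal column totals, a mean of at least 50, no trend, the replicate number as a block, and leaving out each library. Python 3.11.15 with pandas 2.3.3, scipy 1.17.1 and matplotlib 3.10.9 produced the tables and figures.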

Additional observations from a re-analysis of the deposited data

Results flagged for a closer look

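Of 64 groups of 4 libraries examined for 32 genes, 14 held a library whose gap to the nearest of the others exceeded Dixon's 95% critical value, as chance alone does in about 1 in 20 groups. In the libraries labelled Cyp1b1-/-, replicate 2 was that library for Igfbp3 (1476), Igfbp4 (332), Igfbp7 (1794), Pappa (625), Adam12 (865) and Inppl1 (2869), each time the highest, and for Grb10 (12715), the lowest. Replicate 3 was lowest for Nov (45), and replicate 1 was highest for Grb14 (110). In Cyp1b1+/+, replicate 1 was lowest for Igfbp2 (3618), Insr (1000) and Cyr61 (20779) and highest for Gsk3b (2927), and replicate 4 was highest for Igfbp3 (336).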

How the results depend on the processing

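Igfbp2, Igfbp6, Igf2, Igf2r and Insr kept their direction and their call under every alternative run, with log2 fold changes of -2.38 to -2.29, -1.06 to -0.90, -4.57 to -3.60, -0.95 to -0.86 and 0.37 to 0.48. The count of lower genes among the 6 was 2 under every alternative except without replicate 2 labelled Cyp1b1-/-, where it was 4, and leaving out 1 library at a time it was 2 to 4. Leaving out libraries moved Igfbp7 from -1.48 to -0.40, Igfbp4 from -1.01 to 0.48, Igfbp3 from -0.09 to 0.73 and Igf1r from -0.03 to 0.05 on the log2 scale, so that the sign of the last 3 depended on the library left out. Igfbp4 was -0.10 without Cyp1b1+/+ replicate 1. Igf1r was -0.01 with equal column totals. With the replicate number as a block, 2 of the 6 genes were lower and 0 higher, and 3543 genes of the whole table were higher and 3562 lower. The sources do not say whether equal replicate numbers pair the samples. Correlations of the deviations were -0.0226 to -0.0045 for same-numbered libraries and -0.0527 to 0.0588 for the others, which cannot settle it. The block changed no call among these genes. The lack of raw counts limits what can be said of low values such as those of Igf2 and Igfbp4.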
